A study of Rattus norvegicus with 36 samples.

Results

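The comparison described here sets 6 liver samples of male Sprague Dawley rats given 5.41 mg/kg of HCDBCO (hexachlorocyclopentadienyl-dibromocyclooctane, a brominated and chlorinated flame retardant) against 6 liver samples of rats given the corn oil vehicle alone. These 12 samples were chosen by their titles, out of 36 in the series. The other 24 samples were 4 groups of 6 given 541, 54.1, 0.54 or 0.05 mg/kg. They are used below to place 5.41 mg/kg on the dose scale. They also enter the shared estimate of spread behind the limma standard errors, intervals and p-values, except where only 2 groups were fitted. All rats were 7 weeks old at the start, were dosed by gavage in 5 ml per kg on 5 consecutive days, and were sampled 1 day after the last dose. RNA of the left liver lobe was measured on a one-colour Affymetrix rat array, 1 array per sample. The series asks which liver transcripts each dose alters, and 5.41 mg/kg is the middle of its 5 doses.

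A foreign chemical that reaches the liver can be sensed by nuclear receptors in hepatocytes. CAR and PXR, the constitutive androstane receptor and the pregnane X receptor, bind DNA as partners of RXR and switch on enzymes of oxidation (cytochromes P450 of the 2B, 2C and 3A families), of conjugation (glucuronosyltransferases, sulfotransferases, glutathione transferases) and of export. The aryl hydrocarbon receptor (AhR) switches on the CYP1 family, NRF2 answers to electrophiles, and PPAR-alpha switches on fatty acid oxidation and the CYP4A family. In rodent liver, transcripts of these targets are widely used as early readouts of exposure.

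No liver transcript passed the test at 5.41 mg/kg. Of 31042 probe sets tested with limma, 0 (0%) passed a false discovery rate of 5%, and the lowest Benjamini-Hochberg adjusted p was 0.969. At an unadjusted p under 0.05 there were 1498 probe sets, 4.83% of those tested, with 734 higher (2.36%) and 764 lower (2.46%) than in vehicle. The 20 bins of the p-value histogram held between 1471 and 1647 probe sets each, against 1552.1 for an even spread. The 6 samples given 5.41 mg/kg all lay above every vehicle sample for 30 probe sets (0.0966%) and all below for 17 (0.0548%).

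Most estimates were also small. The median absolute difference between the groups was 0.06 on the log2 scale, with a median standard error of 0.08 and a median half-width of the 95% interval of 0.16. All values below are on the log2 scale of the deposited values, all differences are 5.41 mg/kg minus vehicle unless stated otherwise, and brackets hold unadjusted 95% confidence limits. For 30393 probe sets (97.9%) the whole interval lay inside a 1.5-fold change in either direction. An estimated difference of at least 1.5-fold was seen for 35 probe sets, 14 higher and 21 lower, and of at least 2-fold for 8, 3 higher and 5 lower.

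The probe sets past 2-fold, singled out here after their values were seen, had wide spread. The probe set shared by RT1-A2 and RT1-A3, class I genes of the rat major histocompatibility complex, had the largest difference, at -3.38. It ran from 3.73 to 10.81 (median 7.12) at 5.41 mg/kg and from 10.14 to 11.40 (median 10.41) in vehicle, with overlapping groups and an unadjusted limma p of 0.0221. Onecut1, a transcription factor of hepatocytes and bile duct cells, differed by -1.42 and, on a second probe set, by -1.26. Cdh17, a cadherin, differed by -1.37 and Ubd, a ubiquitin-like protein, by 1.38. The other 3 were Egr1 and Igfbp1, described below, and a probe set with no symbol listed, at -1.44. The limma adjusted p of each of the 8 was 0.977.

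**Figure D1:**
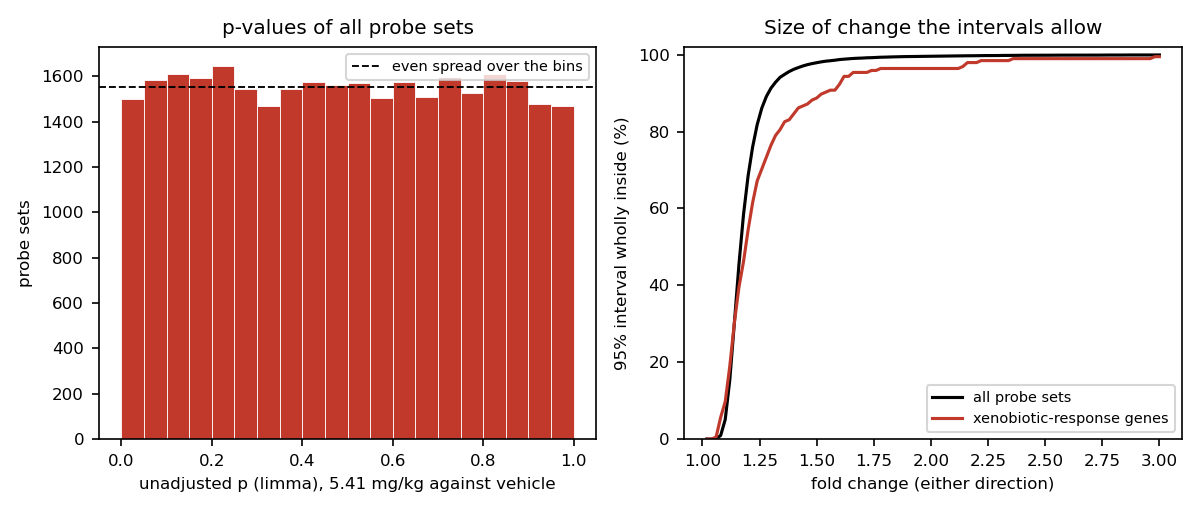
Left: number of probe sets in each of 20 bins of the unadjusted limma p of 5.41 mg/kg against vehicle, with a dashed line at the 1552.1 of an even spread. Right: percentage of 95% intervals that lie wholly inside a given fold change in either direction, for all 31042 probe sets (black) and for 195 xenobiotic-response genes (red). The histogram is flat, and the red curve runs below the black one at 1.5-fold, where it reaches 88.7% against 97.9%.

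The samples carried their tissue label. The 12 measured hepatocyte markers, among them Alb, Apoa1 and Ttr, averaged 13.21 ± 0.06 at 5.41 mg/kg and 13.19 ± 0.09 in vehicle (SD, n = 6 each). The array medians lay between 5.10 and 5.12 at 5.41 mg/kg and between 5.06 and 5.12 in vehicle. One array outside the comparison, replicate 5 of 54.1 mg/kg, stood apart, with the highest lower quartile (3.80) and the lowest upper quartile (6.95) of the 36, and it entered the model's shared spread; without it 0 probe sets passed against vehicle. As a sign of RNA quality, beta-actin read 1.11 ± 0.06 higher at its 3′ than at its 5′ end at 5.41 mg/kg and 1.13 ± 0.08 higher in vehicle (SD, n = 6 each). Among markers of other cells, all 6 measured fat cell markers had a higher mean at 5.41 mg/kg (median difference 0.07), as had 7224 of all 14217 genes. The list means were 5.27 to 5.53 at 5.41 mg/kg and 5.14 to 5.38 in vehicle. An unadjusted limma p under 0.05 was reached by 0 of the 6, against 4.76% of all genes. At 0.05, 0.54, 54.1 and 541 mg/kg, against the same vehicle samples, the list median was 0.04, 0.09, 0.11 and 0.07. Other lists leaned too, with 8 of 10 sinusoidal endothelial markers lower (median -0.04) and 8 of 10 Kupffer cell and macrophage markers higher (median 0.10). An unadjusted limma p under 0.05 was reached by 1 of the endothelial markers (10%), which was higher, and 0 of the Kupffer markers. At 0.05, 0.54, 54.1 and 541 mg/kg the endothelial median was -0.01, 0.00, 0.03 and -0.14, and the Kupffer median 0.26, 0.06, 0.00 and 0.07. In whole tissue, fewer cells of a type and less RNA per cell cannot be told apart.

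Of 229 listed xenobiotic-response genes in 11 lists, 195 were measured by a probe set with 1 gene symbol. None passed the false discovery rate. At an unadjusted p under 0.05 there were 12 genes (6.15%), 5 higher and 7 lower, against 677 of all 14217 genes (4.76%), 309 higher (2.17%) and 368 lower (2.59%). The median difference of the 195 was 0.01, and that of all genes 0.00. For 173 of the 195 (88.7%) the interval lay inside 1.5-fold, and for 188 (96.4%) inside 2-fold.

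**Figure D2:**
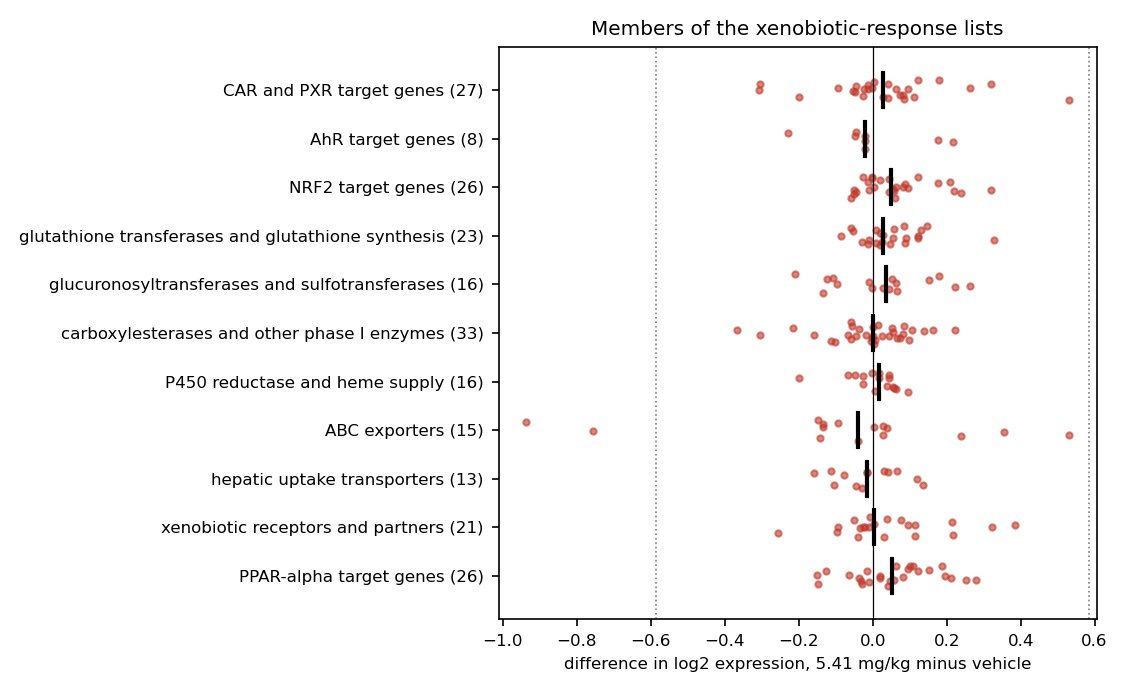
Difference in log2 expression, 5.41 mg/kg minus vehicle, of each measured member of the 11 xenobiotic-response lists (points, spread vertically for visibility, number of members in brackets) with the list median (black bar) and dotted lines at 1.5-fold. The list medians lie between -0.04 and 0.05, and the 2 points beyond a dotted line are Abcg8 and Abcg5 among the ABC exporters.

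The promoters of a few of these genes are printed because the classical binding element of PXR was described in one of them. Each window runs from 250 bases before to 50 bases after the annotated start, 5′ to 3′ on the gene's strand, from RefSeq on assembly GRCr8. Capitals mark matches on either strand to a direct repeat of the half-site AGTTCA with any 3 bases between its arms in the first window, and to the half-sites AGTTCA and AGGTCA in the second. The repeat contains the half-site AGTTCA in each of its arms. The first window lies at chr12:14398754-14399053 on the minus strand and the second at chr1:270376951-270377250 on the plus strand.
Cyp3a23-3a1: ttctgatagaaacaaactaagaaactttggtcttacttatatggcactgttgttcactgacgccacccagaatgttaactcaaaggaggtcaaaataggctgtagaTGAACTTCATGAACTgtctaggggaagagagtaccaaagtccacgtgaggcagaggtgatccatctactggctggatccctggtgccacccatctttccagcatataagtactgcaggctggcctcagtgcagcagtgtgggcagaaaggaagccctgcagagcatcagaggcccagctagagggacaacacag
Ces2c: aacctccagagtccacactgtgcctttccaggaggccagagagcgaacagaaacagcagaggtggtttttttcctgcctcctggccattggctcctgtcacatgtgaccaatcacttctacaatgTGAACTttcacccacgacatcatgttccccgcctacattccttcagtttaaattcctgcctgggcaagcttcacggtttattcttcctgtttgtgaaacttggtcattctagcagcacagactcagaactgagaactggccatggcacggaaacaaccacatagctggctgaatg

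The full repeat was found in 1 place in the Cyp3a23-3a1 window, and in 2 of the 33469 promoter windows of the table (0.00598%). Single half-sites are common: AGTTCA was found in 14.5% of all windows and AGGTCA in 16.2%. The Ces2c window held 1 AGTTCA and 0 AGGTCA.

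Target genes of CAR and PXR had a small median difference from vehicle at 5.41 mg/kg, with wider intervals than most genes. Of 35 listed, 27 were measured, and 15 of them had a higher and 12 a lower mean than in vehicle. One was higher and 1 lower at an unadjusted p under 0.05 (7.41% of the list, against 4.76% of all genes), and none passed the false discovery rate. The median difference was 0.03, and the estimates ran from -0.31 to 0.53. The median half-width of the interval was 0.23, against 0.16 over all genes. The whole interval lay inside 1.5-fold for 21 of the 27 (77.8%), against 97.2% of all genes. The upper confidence limit was below 1.5-fold for 22 of the 27 and below 2-fold for 26. Of the 8 others, Cyp2b1 and Cyp2b2 share a probe set described below, and Cyp3a62, Ugt1a1, Ces2a, Aldh1a7, Gsta2 and Abcb1b are not analysed as single genes here.

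Cyp3a23-3a1, a standard PXR target in rat liver that oxidises steroids and drugs, ran from 12.52 to 12.96 with a median of 12.78 at 5.41 mg/kg, and from 12.60 to 12.86 with a median of 12.72 in vehicle. The vehicle samples lay inside the range of the treated ones. The difference was 0.04 [-0.17, 0.26], with an upper limit of 1.19-fold. Cyp2c6v1, a CYP2C enzyme, ran from 13.45 to 13.73 (median 13.58) at 5.41 mg/kg and from 13.46 to 13.63 (median 13.55) in vehicle, a difference of 0.04 [-0.06, 0.14]. The 9 measured P450 members of the list (Cyp2a1, Cyp2a2, Cyp2b3, Cyp2c6v1, Cyp2c7, Cyp3a2, Cyp3a9, Cyp3a18 and Cyp3a23-3a1) differed by -0.05 to 0.06.

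The probe set shared by Cyp2b1 and Cyp2b2, the phenobarbital-inducible P450s of rat liver, was singled out after its values were seen, because each of these genes is otherwise unmeasured. It ran from 10.88 to 11.56 (median 11.40) at 5.41 mg/kg and from 10.33 to 11.75 (median 10.96) in vehicle. The vehicle samples spread over a wider range, at both ends, than the treated ones. The difference was 0.39 [-0.06, 0.83], with an unadjusted limma p of 0.0877.

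Ces2c, a carboxylesterase of the endoplasmic reticulum, ran from 7.13 to 7.56 (median 7.48) at 5.41 mg/kg and from 7.14 to 7.69 (median 7.29) in vehicle. The ranges almost coincide, and the difference was 0.07 [-0.21, 0.35], with an upper limit of 1.28-fold. The other carboxylesterase on the list went the opposite way. Ces1d ran from 12.17 to 12.87 (median 12.46) at 5.41 mg/kg and from 12.62 to 13.02 (median 12.78) in vehicle, a difference of -0.31 [-0.50, -0.12] with an unadjusted limma p of 0.00242 and an adjusted p of 0.977. The groups overlapped in part, and 3 treated samples lay under the whole vehicle range.

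Ugt2b1, which attaches glucuronic acid to steroids and drugs, had the smallest p of the list members with a higher mean. It ran from 12.05 to 12.46 (median 12.43) at 5.41 mg/kg and from 11.85 to 12.25 (median 12.13) in vehicle, with partly overlapping groups. The difference was 0.26 [0.00, 0.53], with an unadjusted limma p of 0.0495 and an adjusted p of 0.977. The probe set shared by 8 Ugt1a genes, also singled out after its values were seen, differed by 0.11 [0.00, 0.22], and a second probe set of the same 8 genes by 0.07 [-0.09, 0.23].

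Abcc3, the MRP3 exporter of conjugates on the blood side of the hepatocyte, had the largest estimate on the list and one of the widest intervals. It ran from 4.70 to 6.38 (median 5.35) at 5.41 mg/kg and from 4.52 to 5.20 (median 5.06) in vehicle. There were 4 treated samples above the whole vehicle range, and the SD was 0.66 at 5.41 mg/kg and 0.27 in vehicle. The difference was 0.53 [-0.03, 1.10], with an unadjusted limma p of 0.0645, and it was the only one of the 27 whose upper limit exceeded a 2-fold increase. Without 5.41 mg/kg replicate 3, the sample at 6.38, the difference was 0.35. The exporters Abcc2 (MRP2) and Abcb1a (a P-glycoprotein) differed by -0.09 [-0.30, 0.11] and 0.03 [-0.21, 0.26].

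The remaining members had intervals that included 0. Akr7a3, an aldehyde reductase that acts on aflatoxin dialdehyde, differed by 0.32 [-0.02, 0.66], and by 0.17 without 5.41 mg/kg replicate 4, which reached 11.80 where the next sample was 11.04. The difference was 0.12 [-0.44, 0.68] for the glutathione transferase Gsta3 and 0.18 [-0.24, 0.60] for the sulfotransferase Sult2a6. The microsomal epoxide hydrolase Ephx1 differed by 0.08 [-0.13, 0.29], the retinaldehyde dehydrogenase Aldh1a1 by 0.08 [-0.19, 0.36], and the P450 reductase Por, which supplies electrons to P450s, by 0.10 [-0.14, 0.33]. Alas1, the first enzyme of heme synthesis, differed by -0.20 [-0.52, 0.12] and Thrsp, a lipogenic gene, by -0.31 [-0.69, 0.08]. The 4 members left, Slco1a4, Gstm1, Akr1b7 and Gadd45b, differed by -0.04 to 0.11.

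**Figure D3:**
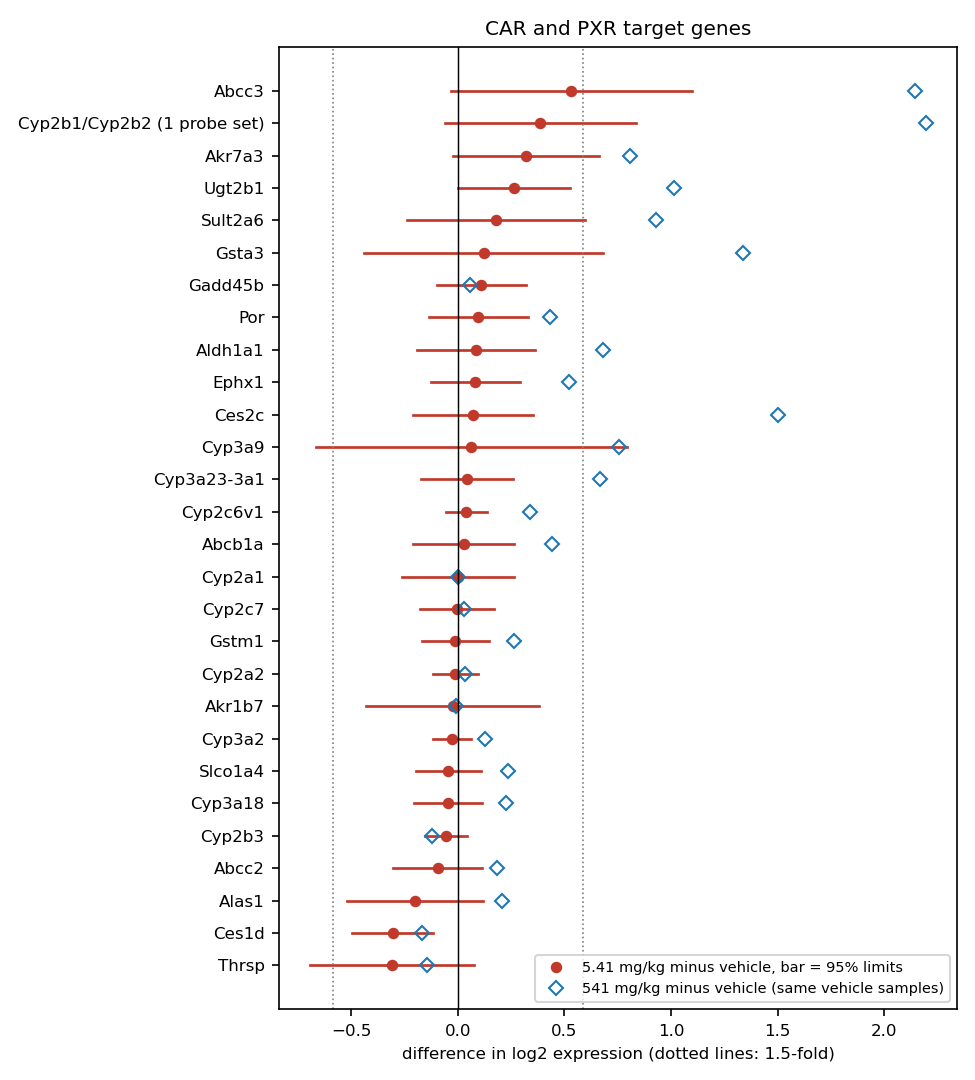
Differences in log2 expression for 27 CAR and PXR target genes and the probe set shared by Cyp2b1 and Cyp2b2. Red points are 5.41 mg/kg minus vehicle with 95% limits, open blue diamonds are 541 mg/kg minus vehicle from the same vehicle samples, and dotted lines mark 1.5-fold. Most red intervals include 0, except those of Ces1d and Ugt2b1, and the red point of Ces2c, at 0.07, lies left of its diamond.

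Among 8 measured AhR target genes the median difference was -0.02, and 1 of the 8 reached an unadjusted limma p under 0.05 (12.5%, against 4.76% of all genes). Cyp1a1, the most inducible AhR target, ran from 4.35 to 4.89 (median 4.64) at 5.41 mg/kg and from 4.48 to 4.83 (median 4.66) in vehicle, a difference of -0.02 [-0.30, 0.26]. Cyp1a2 differed by -0.04 [-0.15, 0.06], and Ahrr, the repressor of AhR, by 0.22 [0.03, 0.41] with an unadjusted limma p of 0.0260, at low values (mean 3.29 at 5.41 mg/kg and 3.08 in vehicle).

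Among 26 measured NRF2 target genes the median difference was 0.05, and 0 of 26 reached an unadjusted p under 0.05. Nqo1, a quinone reductase, ran from 7.10 to 8.06 (median 7.38) at 5.41 mg/kg and from 7.11 to 7.52 (median 7.35) in vehicle, with a difference of 0.18 [-0.32, 0.67]. Abcc4, an exporter, and Pir, an iron-binding nuclear protein, differed by 0.24 [-0.01, 0.48] and 0.22 [0.00, 0.44], just short of an unadjusted p of 0.05. The malic enzyme Me1 differed by 0.21 [-0.01, 0.43], and its second probe set by 0.31 [0.04, 0.58].

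Among 23 glutathione transferase and glutathione synthesis genes the median difference was 0.03. Of the 23, 1 reached an unadjusted limma p under 0.05 (4.35%, against 4.76% of all genes). This was the theta-class transferase Gstt2, at 0.12 [0.02, 0.23]. The intervals of Gstt1, at 0.15 [-0.01, 0.30], and Gstt3, at 0.33 [-0.07, 0.72], included 0. Among 16 glucuronosyltransferases and sulfotransferases the median was 0.04, and 3 reached an unadjusted p under 0.05 (18.8%, against 4.76% of all genes): Ugt2b1 and Sult2b1 higher (Sult2b1 by 0.15 [0.01, 0.30]) and Sult1c3 lower, by -0.12 [-0.24, -0.01]. A second, dimmer probe set of Sult2b1 differed by 0.34 [0.08, 0.60].

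The 33 carboxylesterases and other phase I enzymes had a median difference of 0.00, and besides Ces1d the P450 Cyp2t1 was lower at an unadjusted p under 0.05. These were 2 of the 33 (6.06%, against 4.76% of all genes). Cyp2t1 ran from 7.64 to 8.25 (median 8.18) at 5.41 mg/kg and from 8.16 to 8.61 (median 8.45) in vehicle, with little overlap. Its difference was -0.37 [-0.60, -0.14], with an unadjusted limma p of 0.00274. None of the 16 genes of P450 reductase and heme supply reached an unadjusted p under 0.05 (median 0.02).

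Of 13 hepatic uptake transporters (median difference -0.02), Slco1a1, an organic anion transporter, was lower at an unadjusted p under 0.05 (1 of 13, 7.69%, against 4.76% of all genes). It ran from 9.97 to 10.20 (median 10.09) at 5.41 mg/kg and from 10.19 to 10.29 (median 10.25) in vehicle, a difference of -0.16 [-0.27, -0.05]. Of the 21 xenobiotic receptors and partners (median 0.00), the small MAF protein Mafg, a partner of NRF2 on DNA, differed by 0.21 [0.06, 0.37]. It was 1 of 21 at an unadjusted limma p under 0.05 (4.76%, equal to the share of all genes). The receptors themselves differed by -0.03 [-0.22, 0.17] for Nr1i2 (PXR), -0.10 [-0.58, 0.38] for Nr1i3 (CAR), 0.22 [-0.06, 0.50] for Ahr and -0.02 [-0.27, 0.24] for Nfe2l2 (NRF2). The wide interval of Nr1i3 goes with 1 vehicle sample at 6.96, where the next was 8.19.

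Of 26 PPAR-alpha target genes (median 0.05), 17 had a higher mean, and 1 (3.85%, against 4.76% of all genes) reached an unadjusted p under 0.05. This was Cidec, a lipid droplet protein, at -0.15 [-0.29, 0.00]. Cyp4a1, the fatty acid hydroxylase that peroxisome proliferators induce in rat liver, ran from 10.97 to 12.14 (median 11.37) at 5.41 mg/kg and from 11.21 to 11.69 (median 11.57) in vehicle. Its difference was 0.02 [-0.30, 0.35], and the treated samples extended beyond the vehicle range on both sides.

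The widest departures among the xenobiotic genes were in the ABC exporters, in the pair Abcg5 and Abcg8. Their proteins form a heterodimer that pumps sterols out of hepatocytes into bile, and both genes are known targets of the oxysterol receptor LXR. Abcg5 ran from 7.78 to 8.27 (median 8.04) at 5.41 mg/kg and from 8.32 to 9.27 (median 8.75) in vehicle. The 2 groups did not overlap, the treated one being the lower, as for 9 of all 14217 genes (0.0633%). The difference was -0.76 [-1.23, -0.28], a ratio of 0.592, with an unadjusted limma p of 0.00274 and an adjusted p of 0.977. The SD was 0.20 at 5.41 mg/kg and 0.33 in vehicle. At 0.05, 0.54, 54.1 and 541 mg/kg, which enter the shared spread, it was 0.22, 0.43, 0.75 and 0.45. The lowest limma adjusted p of Abcg5 under any alternative fit was 0.631.

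Abcg8 ran from 6.08 to 6.82 (median 6.40) at 5.41 mg/kg and from 6.61 to 7.79 (median 7.47) in vehicle. One vehicle sample, at 6.61, lay inside the treated range, and the 5 others lay above it. The difference was -0.94 [-1.57, -0.31], a ratio of 0.522, with an unadjusted limma p of 0.00459 and an adjusted p of 0.977. Neither gene passed the false discovery rate. Both were named by the rule for this list and looked at among 31042 probe sets. They were the 2 of 15 measured members at an unadjusted limma p under 0.05 (13.3%, against 4.76% of all genes). The other 13 measured members of the list, which also holds Abcc9 and Slc47a1, differed by -0.15 to 0.53. Among them was the cholesterol exporter Abca1, another LXR target, at 0.36 [-0.43, 1.14].

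Abcg5 and Abcg8 are read in opposite directions from starts 205 bases apart, so that their promoter windows share 295 of 300 bases. The Abcg5 window, at chr6:15717686-15717985 on the plus strand of GRCr8, is shown because nearly the same bases precede both genes. It held 0 AGGTCA and 1 AGTTCA, and no letters are capitalised.
Abcg5: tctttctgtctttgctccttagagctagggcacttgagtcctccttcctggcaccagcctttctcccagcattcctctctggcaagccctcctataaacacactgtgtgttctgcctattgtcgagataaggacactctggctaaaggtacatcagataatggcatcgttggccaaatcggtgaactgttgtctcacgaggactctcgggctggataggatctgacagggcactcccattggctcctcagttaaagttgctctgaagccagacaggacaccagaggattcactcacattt

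At the other doses, set against the same 6 vehicle samples, Abcg5 differed by -0.18 at 0.05, -0.06 at 0.54, -1.08 at 54.1 and -0.74 at 541 mg/kg, and Abcg8 by -0.34, -0.08, -1.33 and -1.004. The adjusted p at 54.1 mg/kg was 0.0575 for Abcg5 and 0.0936 for Abcg8, so that neither gene passed there. Since the vehicle samples are shared, these differences are not independent of each other. Set directly against 541 mg/kg, Abcg5 differed by -0.01 [-0.49, 0.46] and Abcg8 by 0.06 [-0.56, 0.69].

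Bile acid synthesis, the other way by which liver disposes of cholesterol, had 13 measured genes and a median difference of 0.05. Of the 13, 1 reached an unadjusted limma p under 0.05 (7.69%, against 4.76% of all genes). Cyp8b1, the sterol 12-alpha-hydroxylase, ran from 10.63 to 11.02 (median 10.82) at 5.41 mg/kg and from 9.92 to 10.98 (median 10.49) in vehicle. Its difference was 0.36 [0.10, 0.61], with an unadjusted limma p of 0.00749. Cyp7a1, the rate-limiting enzyme of the classical pathway, ran from 9.27 to 11.77 (median 10.62) at 5.41 mg/kg and from 8.62 to 10.46 (median 10.05) in vehicle. It had a difference of 0.76 [-0.10, 1.63], and the SD of 0.88 at 5.41 mg/kg and 0.68 in vehicle was about as large as the difference. Among 19 cholesterol synthesis genes (median 0.04), Nsdhl, a sterol dehydrogenase, differed by 0.18 [0.05, 0.32]. It was 1 of 19 at an unadjusted limma p under 0.05 (5.26%).

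**Figure D4:**
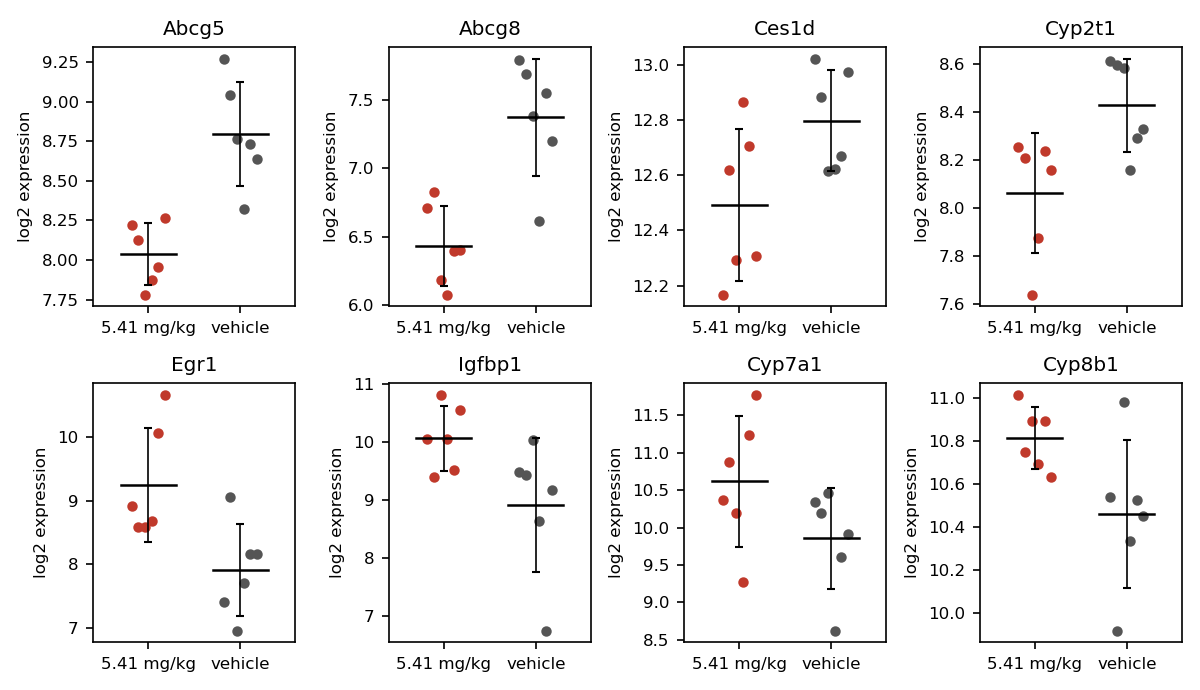
Log2 expression of 8 genes in each of the 6 samples at 5.41 mg/kg (red, left) and the 6 vehicle samples (grey, right), with the mean (bar) and SD (whisker). The groups are separate only for Abcg5, 1 vehicle sample of Igfbp1 lies at 6.75, and none of the 8 genes passed the false discovery rate.

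Egr1, an immediate early transcription factor, ran from 8.59 to 10.67 (median 8.80) at 5.41 mg/kg and from 6.96 to 9.06 (median 7.94) in vehicle. Its difference was 1.34 [0.51, 2.17], with an unadjusted limma p of 0.00241 and an adjusted p of 0.977. Junb, another immediate early gene, differed by 0.42 [0.13, 0.71] and Fos by 0.07 [-0.07, 0.21]. Over the 12 measured immediate early genes, 2 reached an unadjusted p under 0.05 (16.7%, against 4.76% of all genes), and the median was 0.03.

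Igfbp1, an insulin-repressed liver protein that binds insulin-like growth factors, ran from 9.40 to 10.82 (median 10.05) at 5.41 mg/kg and from 6.75 to 10.03 (median 9.31) in vehicle. Its difference was 1.14 [0.40, 1.88], with an unadjusted limma p of 0.00340. It was 0.71 without vehicle replicate 5, the sample at 6.75. Pck1, a fasting gene of glucose production, differed by 0.28 [-0.20, 0.77], and its lowest value of 11.40 was that of the same vehicle replicate 5, without which the difference was 0.04. Nr3c1, the glucocorticoid receptor, differed by -0.29 [-0.46, -0.12] with an unadjusted limma p of 0.00112, while a second, dimmer probe set differed by -0.04.

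With 1 probe set per gene, the smallest p among genes with a higher mean belonged to Spmip6, at 0.37 [0.21, 0.53] (limma adjusted p = 0.969). It ran from 5.55 to 6.18 (median 5.69) at 5.41 mg/kg and from 5.27 to 5.53 (median 5.43) in vehicle, and the groups did not overlap. The 9 next were Ebi3, Ccsap, Ctsk, Trim72, Kcnj6, Myoz3, Egr1, Lrrc39 and Irag2. Apart from Egr1 they differed by 0.18 to 0.34, and 2 of them, Ebi3 and Lrrc39, did not overlap with vehicle. With all probe sets of a gene averaged, the difference of Kcnj6 turned to -0.02, and those of Ccsap and Lrrc39 were 0.13 and 0.11.

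The smallest p among genes with a lower mean belonged to Ccdc25, at -0.35 [-0.53, -0.17]. It ran from 5.75 to 6.11 (median 5.97) at 5.41 mg/kg and from 6.09 to 6.52 (median 6.31) in vehicle, while 2 dimmer probe sets of the gene differed by -0.01 and 0.06. The 9 next were Arhgef26, Ccdc126, Rtn4rl2, Exph5, Nr3c1, Sipa1l2, Klhl25, C17h7orf25 and S1pr1, an endothelial lipid receptor. They differed by -0.67 (Exph5) to -0.23 (S1pr1), and of these only Sipa1l2 did not overlap with vehicle. With all probe sets of a gene averaged, the difference was -0.10 for Ccdc25, -0.09 for Sipa1l2, -0.17 for Nr3c1 and -0.11 for S1pr1. Of all 14217 genes, 11 lay above vehicle in all 6 samples (0.0774%) and 9 below (0.0633%), and the 20 together (0.141%) included Abcg5 and no other gene of the xenobiotic lists.

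Lists of other responses gave no call either. At an unadjusted p under 0.05, which 4.76% of all genes reached, there were 0 of 23 cell cycle genes, 0 of 13 p53 target genes, 0 of 28 proteasome subunits, 0 of 8 heat shock genes, 2 of 19 genes of the unfolded protein response (10.5%) and 1 of 17 acute phase proteins (5.88%). Higher shares were seen for small lists of thyroid hormone response (2 of 9, 22.2%), glucose production and fasting (2 of 11, 18.2%) and glucocorticoid response (2 of 12, 16.7%). These counts are not separate. Igfbp1 is counted in both the glucose and the glucocorticoid list, and Ugt2b1, counted above, in the thyroid list. Xbp1, a transcription factor of the unfolded protein response, differed by -0.31 [-0.60, -0.02], and Hamp, the iron hormone hepcidin, by -0.43 [-0.83, -0.03]. Of 14 stellate cell markers, Rgs5, also a pericyte marker, differed by -0.34 [-0.58, -0.09] and the matrix protein Lum by 0.91 with limits that included 0, in opposite directions, with a list median of 0.04.

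Set against the highest dose, 5.41 mg/kg was lower for a small set of genes. The false discovery rate was passed by 18 probe sets (0.058% of 31042), with 0 higher and 18 lower at 5.41 than at 541 mg/kg. Of the 18, 12 also passed at 541 mg/kg against vehicle. Ces2c ran from 7.13 to 7.56 (median 7.48) at 5.41 mg/kg and from 8.50 to 9.35 (median 8.70) at 541 mg/kg, a difference of -1.43 [-1.71, -1.15] (limma adjusted p = 9.46e-08). The probe set of Cyp2b1 and Cyp2b2 had medians of 11.40 at 5.41 mg/kg and 13.24 at 541 mg/kg and differed by -1.81 [-2.26, -1.36] (limma adjusted p = 1.52e-05). Cyp2c6v1 differed by -0.30 [-0.40, -0.20] (limma adjusted p = 0.00283).

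Abcc3 differed by -1.61 [-2.18, -1.05] between 5.41 and 541 mg/kg (limma adjusted p = 0.00566), Ugt2b1 by -0.75 [-1.01, -0.49] (adjusted p = 0.00566) and Cyp3a23-3a1 by -0.62 [-0.84, -0.41] (adjusted p = 0.00538). Over vehicle, the upper 95% limits at 5.41 mg/kg were 1.28-fold for Ces2c, 1.19-fold for Cyp3a23-3a1, 1.44-fold for Ugt2b1 and 2.14-fold for Abcc3. For the probe set of Cyp2b1 and Cyp2b2 the limit was 1.78-fold. Rgs5 differed by -0.67 [-0.92, -0.43] and the lactate dehydrogenase Ldhd, which acts on the D form, by -0.46 [-0.62, -0.30]. Neither gene passed at 541 mg/kg against vehicle, with Rgs5 at 0.34 (limma adjusted p = 0.328) and Ldhd at 0.35 (limma adjusted p = 0.0505). For Rgs5, 5.41 mg/kg also lay under vehicle, by -0.34. The calls of Abcc3, Rgs5 and Ldhd were lost when only these 2 groups entered the fit (adjusted p = 0.337, 0.324 and 0.249).

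Cryl1, Mmgt1, Mnd1 and Cyp2b21 also passed, at -0.58, -0.49, -0.47 and -0.36, with adjusted p between 0.0306 and 0.0494. Their calls held in 4, 5, 1 and 5 of the 12 fits that left out 1 sample of either group. Mnd1 and Cyp2b21 did not pass at 541 mg/kg against vehicle (limma adjusted p = 0.0503 and 0.0986). Of the 27 CAR and PXR genes, 18 were lower and 0 higher at 5.41 than at 541 mg/kg at an unadjusted p under 0.05, against 4.08% and 3.05% of all genes, and the median difference was -0.30. The list was chosen with the 541 mg/kg results known.

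**Figure D5:**
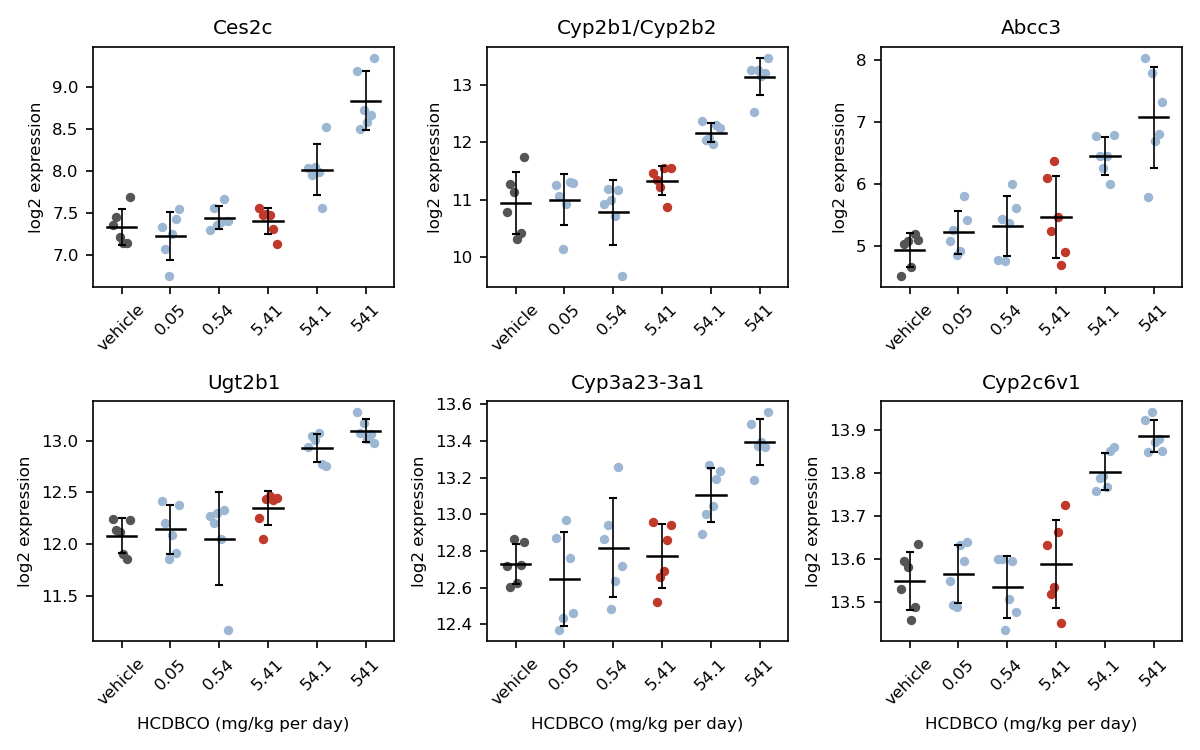
Log2 expression in each of the 36 samples by dose of HCDBCO (mg/kg per day, vehicle at left) for 5 CAR and PXR target genes and the probe set shared by Cyp2b1 and Cyp2b2, with the mean (bar) and SD (whisker) of 6 samples. The samples at 5.41 mg/kg (red) overlap with vehicle (dark grey) in every panel, and all 6 samples of Ces2c at 541 mg/kg lie at 8.50 or above.

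Between 5.41 and 54.1 mg/kg 0 probe sets (0%) passed with limma, the lowest adjusted p was 0.532, and 1348 probe sets (4.34%) had an unadjusted p under 0.05. Ces2c differed by -0.61 and the Cyp2b1 and Cyp2b2 probe set by -0.83 [-1.28, -0.39] without passing. Of the 27 CAR and PXR genes, 12 were lower and 0 higher at 5.41 than at 54.1 mg/kg at an unadjusted p under 0.05, against 2.57% and 1.74% of all genes, with a median difference of -0.18. Against 0.54 mg/kg 0 probe sets passed and 956 (3.08%) had an unadjusted p under 0.05, and against 0.05 mg/kg 0 passed and 1035 (3.33%) did.

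Over the dose order, the median difference of the 27 CAR and PXR genes from vehicle was 0.00 at 0.05, 0.05 at 0.54, 0.03 at 5.41, 0.24 at 54.1 and 0.26 at 541 mg/kg. Their mean level lay between 10.23 and 10.50 at 5.41 mg/kg and between 10.19 and 10.36 in vehicle, so that the groups overlapped. The 5 differences share the vehicle samples.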

How the data were processed

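Rat liver RNA of 36 samples was measured on Affymetrix 3′ arrays, 1 per sample. Per the labels' protocols, RNA had an integrity number of at least 7, 100 ng was amplified, and 12.5 µg was hybridised for 16 h. The authors made the deposited log2 expression table with RMA and affy, per the submitters' processing notes, which give no versions. Raw intensities were not analysed here. Leaving out 57 control probe sets left 31042, of which 20826 had 1 symbol, 436 several and 9780 none. The brightest probe set stood for each of 14217 genes.

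In limma 3.58.1 (R 4.3.3), a one-way model of 6 groups covered all 36 arrays, with two-sided p-values adjusted by Benjamini-Hochberg over all probe sets at 5%, and tested on simulated data. The labels do not say which animal each sample came from, nor give batches, so the p-values cover only the spread between samples, part of which may be technical, and the number of arrays limits precision. Members, lists and tests were chosen with earlier results of these data known. Named were the 10 smallest p in each direction, all CAR and PXR members, the 4 smallest p (and any p under 0.05) of other xenobiotic lists, 2 of other lists, fixed genes, and the 10 largest differences past the rate against 541 mg/kg; some were summarised only. Alternatives changed the fit, prior, weights, filter, centring, blocking, samples or probe sets.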

Additional observations from a re-analysis of the deposited data

Results flagged for a closer look

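In each group of 6, a sample stood out when its gap to the nearest other sample, as a share of the group's range, exceeded Dixon's 95% critical value. Of 286 groups of named genes looked at, 19 had such a sample, 10 at 5.41 mg/kg and 9 in vehicle, where chance alone gives about 1 in 20, or 14.3.

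At 5.41 mg/kg, replicate 6 was low for Ephx1 (12.01) and Abcc2 (9.57) and high for Gadd45b (4.90). Replicate 1 was high for Akr1b7 (3.82) and Gstz1 (12.1) and low for Cyp2b3 (12.9). Replicate 4 was high for Akr7a3 (11.8) and low for Mcm3 (4.72) and Cftr (2.81), and replicate 3 was low for Sult1c3 (12.3).

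In vehicle, replicate 4 was low for the receptor gene Nr1i3 (6.96) and for Mnd1 (5.61), and replicate 3 was low for Hemgn (2.72) and Cyp2b21 (3.06) and high for Cpt1a (11.0). Replicate 1 was low for Sult2a6 (8.71), replicate 2 for Urod (9.71) and replicate 5 for Pck1 (11.4), and replicate 6 was high for Cps1 (13.4). All are log2 values.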

How the results depend on the processing

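No probe set passed between 5.41 mg/kg and vehicle under any of 19 alternatives, the replicate block included (0 with it), and the lowest adjusted p in any was 0.243, without 5.41 mg/kg replicate 4. The count at an unadjusted p under 0.05 ranged from 1187 to 1776 over fits without 1 sample, against 1498, and was 1515 with the replicate block. It was 782 with dim probe sets left out, where fewer were tested (15521), 250 higher and 532 lower. The median of the CAR and PXR genes ranged from -0.00492 to 0.0468 over fits without 1 sample and stayed within the spread of the samples under 20 alternatives. Against 541 mg/kg, 18 calls became 7 with only the 2 groups in the fit and 20 with the replicate block (18 lower, 2 higher). They ranged from 9 to 36 over fits without 1 sample: 9 without 541 mg/kg replicate 1 or 6, 10 without replicate 4, 36 without replicate 2. Against 54.1 mg/kg, 1 probe set passed with only the 2 groups in the fit; the cause was not tested. Fits without 1 sample gave 0 against 54.1, 0.54 and 0.05 mg/kg. Of 143 named genes, 120 kept their sign against vehicle under every alternative, 23 did not, and 0 passed. Leaving out 54.1 mg/kg replicate 5, whose distribution stood apart, was added after seeing the data and gave 0 calls against vehicle and 19 against 541 mg/kg. Same-numbered samples of 5.41 mg/kg and vehicle deviated together with correlations of -0.15 to 0.10, and 0 of 6 correlated best with their own number, so the numbers were not taken as pairs.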

Other observations

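Lists of amino acid breakdown and of the proteasome had most member means on 1 side of vehicle at 5.41 mg/kg, without a call. Of 23 genes of the urea cycle and amino acid breakdown, 19 had a lower mean (median difference -0.06), and 3 (13.0%, against 4.76% of all genes) reached an unadjusted limma p under 0.05. These were Hal, a histidine-degrading lyase, at -0.23 [-0.44, -0.01], Glud1, the glutamate dehydrogenase, at -0.10, and Kyat1, which acts on kynurenine, higher at 0.14 [0.01, 0.26]. Of 28 proteasome subunits, 22 had a higher mean (median 0.04), with 0 at an unadjusted p under 0.05. Over all 14217 genes, 7224 had a higher mean and the median was 0.00.

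Of 11 genes that are higher in female rat liver, 9 had a higher mean at 5.41 mg/kg (median 0.05), and of 11 that are higher in male rat liver, 9 had a lower mean (median -0.04). Over all 14217 genes, 7224 had a higher and 6993 a lower mean. Abcc3 is on the first list and Slco1a1 on the second. An unadjusted limma p under 0.05 was reached by 0 of the first list and 1 of the second (9.09%, against 4.76% of all genes). At 0.05, 0.54, 54.1 and 541 mg/kg, against the same vehicle samples, the first list's median was 0.01, 0.07, 0.16 and 0.11. The second list's median was -0.02, -0.02, -0.05 and -0.01. Of 6 erythroid markers 5 had a higher mean (median 0.13), and 1 reached an unadjusted limma p under 0.05 (16.7%, against 4.76% of all genes). Hbb, a haemoglobin chain, differed by 0.21 [-0.03, 0.45] and Hemgn by 0.15 [0.02, 0.27]. Hemgn lay at low values, from 2.72 to 3.10 in vehicle, where replicate 3 was the lowest and the next was 3.00. At 0.05, 0.54, 54.1 and 541 mg/kg, against the same vehicle samples, the erythroid median was 0.10, 0.12, 0.14 and 0.02.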
